A study of Mus musculus with 4 samples.

Results

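BCL2A1, BNIP1, STK17B and NAIP are 4 human genes that regulate cell death, and the deposited table holds them on 5 probe sets, with 2 for BNIP1. They were taken as all probe sets whose platform annotation gives exactly 1 of these symbols, out of 137 probe sets and 99 genes with 1 symbol. Tumors came from MDA-MB-231, an established human triple-negative breast cancer line, grown in the mammary fat pads of athymic nude mice, all female and of the strain Crl:NU(NCr)-Foxn1nu, with 10 injections per arm. Both groups carried a short hairpin RNA (shRNA): 2 tumors a control shRNA and 2 an shRNA against DHHC3, the palmitoyltransferase encoded by ZDHHC3. Tumor volume was followed for 30 days and the sample labels give tumors after 35 days. The sources used here give neither the age of the mice nor whether both tumors of a group grew in separate mice or from separate infections of the line. The sample descriptions end in L for both control tumors and in R for both DHHC3 shRNA tumors. What these letters stand for is not stated, and they cannot be told apart from the group. Athymic hosts lack mature T cells but keep other leukocytes.

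Apoptosis is decided in part at the mitochondrion, where members of the BCL2 family either hold back or promote the release of cytochrome c, and in part at the caspases, the proteases that carry out the death program. BCL2A1 belongs to the survival branch of the BCL2 family and is a known target of the transcription factor NF-kB. NAIP belongs to the inhibitor of apoptosis (IAP) family and also serves as a sensor of bacterial flagellin and secretion proteins in the NLRC4 inflammasome. BNIP1 was found as a partner of adenovirus E1B and BCL2 and is a SNARE protein of the endoplasmic reticulum, needed for membrane traffic from the Golgi. STK17B, also called DRAK2, is a serine/threonine kinase related to death-associated protein kinase and is known from lymphocytes.

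The comparison asks how transcripts of the tumor differ when DHHC3 is depleted from the tumor cells. The survival gene BCL2A1, the kinase STK17B and both probe sets of BNIP1 read lower in the DHHC3 shRNA tumors, and NAIP read higher. BCL2A1 and STK17B were lower by nearly the same amount, 2.39-fold and 2.35-fold. BNIP1 was 1.75-fold and 1.69-fold lower on its 2 probe sets, and NAIP was 2.60-fold higher. The 2 inhibitors of cell death among them, BCL2A1 and NAIP, thus lay in opposite directions. The direction of each was the same as deposited, with every array centred on its median and after quantile normalization over the table.

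These differences are a description and carry no test, because the genes were chosen on this same contrast. The whole table had already been selected for it: on every one of the 137 probe sets (100%) the groups did not overlap, and their nearest arrays were at least 1.56-fold apart. A limma fit called 137 of 137 probe sets (100%), 101 higher (73.7%) and 36 lower (26.3%), so that all 5 probe sets were called sets nothing apart. Of the 5, 4 were lower and 1 higher, with a median log2 fold change of -0.81 against 0.94 over the table; since the genes were chosen with these values known, nothing is read from that split. The deposited values were processed intensities in arbitrary units from 9.69 to 9351, with no detection calls. ZDHHC3, the targeted gene, read 971 and 854 in the controls and 240 and 264 in the DHHC3 shRNA tumors, so its order went with the labels on all 4 arrays.

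BCL2A1 (probe set 205681_at), which protects cells by binding pro-death BCL2 relatives, read 1096 and 1207 units in the controls and 484 and 479 in the DHHC3 shRNA tumors. Both control arrays were high, both DHHC3 shRNA arrays were low, and the groups did not overlap. The group means were 1151 ± 78.3 and 481 ± 3.60 (SD, n = 2 each). The log2 fold change was -1.26 ± 0.07 (SE), from the pooled spread of the 2 groups. The nearest arrays of the groups were 2.26-fold apart and the farthest 2.52-fold, while the controls differed from each other by 1.10-fold and the DHHC3 shRNA arrays by 1.01-fold. In size this was the third among the 36 lower probe sets.

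STK17B (probe set 217503_at), the kinase, read 461 and 487 units in the controls against 202 and 202 in the DHHC3 shRNA tumors. Both control arrays were high, the DHHC3 shRNA arrays were low and close to each other, and the groups did not overlap. The means were 474 ± 18.2 and 202 ± 0.587 (SD, n = 2 each), with a log2 fold change of -1.23 ± 0.04 (SE). The nearest arrays were 2.28-fold apart. STK17B came next after BCL2A1 in size among the lower probe sets, and the difference between their log2 fold changes, 0.03 ± 0.03 (SE), was within the spread of the arrays. The annotation ties this probe set to an expressed sequence tag, a single partial cDNA read, so which STK17B transcripts it measures is not given.

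BNIP1, the SNARE protein, was measured by 2 probe sets of the same gene, which are no replicates of the tumors. Probe set 207829_s_at read 510 and 563 units in the controls against 292 and 321 in the DHHC3 shRNA tumors. Probe set 37226_at read 528 and 530 units in the controls against 312 and 313. On both probe sets the control arrays were high, the DHHC3 shRNA arrays low, and the groups apart. The log2 fold changes were -0.81 ± 0.10 for 207829_s_at and -0.76 ± 0.0049 for 37226_at (SE, n = 2 each), and -0.78 for the mean of both. The log2 fold changes of the 2 probe sets differed by 0.05 ± 0.09 (SE), within their spread. They differed in precision: 37226_at had the smallest SE of all 137 probe sets, while 207829_s_at, at 0.10, was near the median SE of the table, also 0.10. With 2 arrays a group, an SE this small can arise where replicates happen to lie close, and it does not measure the spread of further tumors. Their sizes ranked 25 and 31 among the 36 lower probe sets.

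NAIP (probe set 204860_s_at), the IAP family member, read 74.4 and 64.3 units in the controls and 180 and 180 in the DHHC3 shRNA tumors. Both DHHC3 shRNA arrays were high and nearly equal, and the controls were low and further apart, by 1.16-fold. The means were 69.3 ± 7.15 and 180 ± 0.184 (SD, n = 2 each), and the log2 fold change was 1.38 ± 0.11 (SE). The nearest arrays of the groups were 2.41-fold apart and the farthest 2.80-fold. NAIP ranked 16 in size among the 101 higher probe sets. Human NAIP lies in a duplicated region with partial copies, so which copy gave the signal is uncertain.

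**Figure D1:**
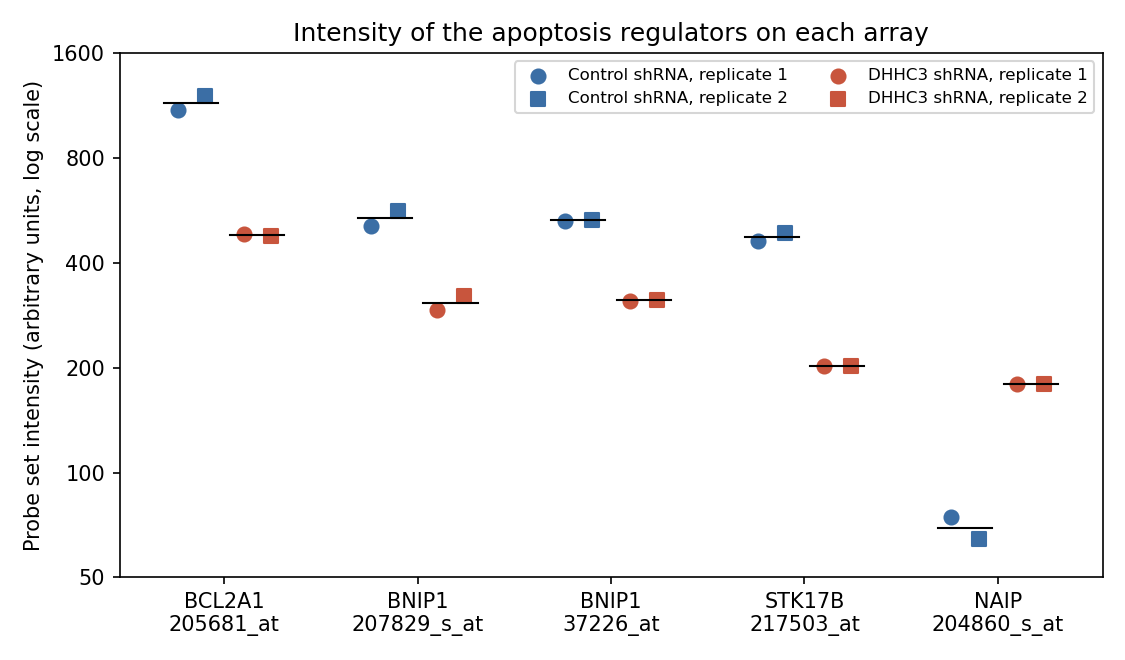
Intensity (arbitrary units, log scale) of the 5 probe sets on each of the 4 arrays; circles are replicate 1, squares replicate 2, and a line marks the geometric mean of the 2 arrays of a group. In BCL2A1, STK17B and both BNIP1 probe sets the 2 control arrays lie above the 2 DHHC3 shRNA arrays, and in NAIP they lie below, at 74.4 and 64.3 against 180 and 180. Levels of different probe sets are not comparable with each other.

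The spread within a group differed between the probe sets. In BCL2A1, STK17B and NAIP the 2 control arrays were 0.14, 0.08 and 0.21 apart on the log2 scale, and the 2 DHHC3 shRNA arrays 0.02, 0.0059 and 0.0021. Over the whole table the median distance was 0.15 between the controls and 0.09 between the DHHC3 shRNA arrays. In BNIP1 207829_s_at the distances were alike, 0.14 and 0.13, and in BNIP1 37226_at the controls were the closer pair, 0.0061 against 0.0077. No test of this spread was made, since each group has 2 arrays.

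**Figure D2:**
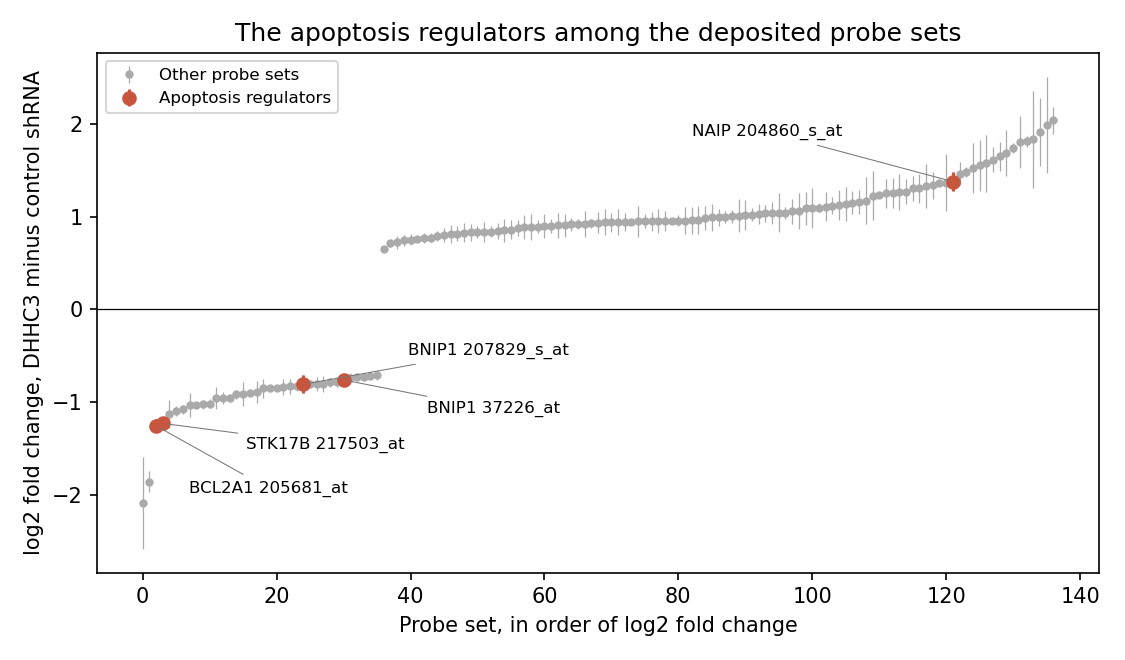
Log2 fold change (DHHC3 minus control shRNA) of all 137 deposited probe sets in rising order, with the SE from 2 arrays a group as bars; the 5 probe sets of the apoptosis regulators are in red. BCL2A1 and STK17B, at -1.26 and -1.23, stand side by side near the low end, BNIP1 lies among the smaller differences at -0.81 and -0.76, and NAIP stands at 1.38. The empty band around 0 shows that probe sets with no difference between the groups are missing from the table.

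Among the fold changes of these genes the scale between arrays matters, since the authors' scaling is not given. A ratio of 2 probe sets on the same array does not depend on a factor that multiplies the whole array. The log2 ratio of BCL2A1 to STK17B was 1.25 and 1.31 in the controls against 1.26 and 1.25 in the DHHC3 shRNA tumors. The groups overlapped, and the change of -0.03 ± 0.03 (SE) was within the spread, so no shift in their ratio was seen beyond the spread while both read over 2-fold lower. The log2 ratio between the BNIP1 probe sets, 207829_s_at over 37226_at, was -0.05 and 0.09 in the controls and -0.09 and 0.03 in the DHHC3 shRNA tumors, which also overlapped.

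The 5 probe sets form 10 pairs, which share probe sets. In the 4 pairs with NAIP a lower probe set stands over a higher one, so that the groups had to separate, as they did in 100% of such pairs in the table. Of the 6 pairs of lower probe sets, 4 did not overlap, beside 63.2% of the 630 pairs of lower probe sets in the table. BNIP1 37226_at over STK17B stood at log2 ratios of 0.20 and 0.12 in the controls and 0.62 and 0.64 in the DHHC3 shRNA tumors, a change of 0.47 ± 0.04 (SE), or 1.38-fold. On these 4 arrays the difference between the groups was thus larger for STK17B than for BNIP1, whatever factor multiplies each whole array. With 207829_s_at in place of 37226_at the change was 0.42 ± 0.08 (SE). Groups that lie apart are the usual case among pairs of lower probe sets, so these ratios are a description. BCL2A1 over NAIP had log2 ratios of 3.88 and 4.23 in the controls and 1.43 and 1.42 in the DHHC3 shRNA tumors. The ratio of these 2 probe set signals fell 6.21-fold as deposited, a log2 change of -2.63 ± 0.17 (SE). After quantile normalization, which does not multiply an array by 1 factor, the change was -2.02, or 4.07-fold. No functional balance of the 2 genes was measured. STK17B over NAIP moved 6.10-fold in the same sense, from log2 ratios of 2.63 and 2.92 to 0.17 and 0.17.

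**Figure D3:**
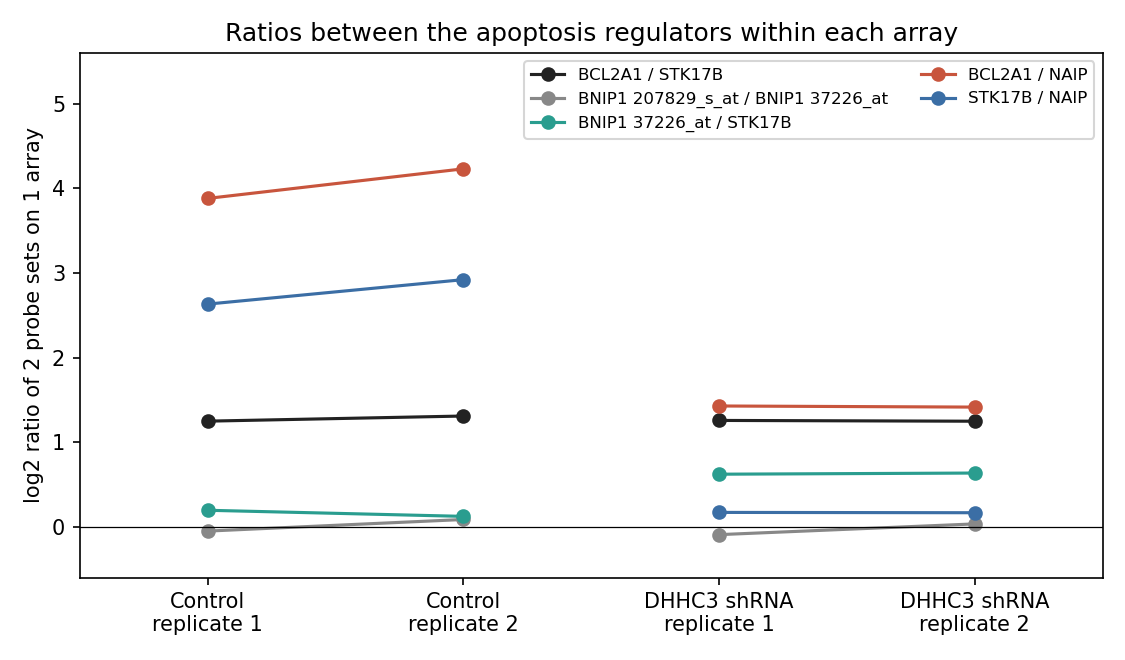
Log2 ratio of 2 probe sets read on the same array, for 5 pairs, on each of the 4 arrays; lines join the arrays of a group. BCL2A1 over STK17B and the ratio of the BNIP1 probe sets keep their level between groups, the ratios over NAIP drop from 3.88 and 4.23 to 1.43 and 1.42 for BCL2A1, and BNIP1 over STK17B goes up. Only the change of a line between groups can be read, not its height, since probe sets differ in brightness.

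The targeted gene ZDHHC3 read 3.62-fold lower and ranked 2 in size among the 36 lower probe sets, after the T cell gene TRBC1. Against it on the same array, every one of the 5 probe sets went up in ratio. Every other probe set of the table but TRBC1 had to do so on average, so nothing is read from that count. The log2 ratio of BCL2A1 to ZDHHC3 was 0.17 and 0.50 in the controls and 1.01 and 0.86 in the DHHC3 shRNA tumors. Its difference between the groups was thus smaller than that of ZDHHC3, by 0.60 ± 0.18 (SE) on the log2 scale. For STK17B this value was 0.63 ± 0.15 (SE), and for BNIP1 it was 1.05 ± 0.16 and 1.10 ± 0.12 (SE) on 207829_s_at and 37226_at.

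Rescaling the table moved the sizes and kept each direction. With every array centred on its median, which shifted all log2 fold changes by -0.51, BCL2A1 was 3.40-fold, STK17B 3.34-fold and BNIP1 2.49-fold and 2.41-fold lower, and NAIP 1.83-fold higher. Quantile normalization over the table, with a median shift of -0.58, gave 3.73-fold lower for STK17B, 2.63-fold lower for BNIP1 207829_s_at and 1.45-fold higher for NAIP, each over 1.5 times away from the deposited fold. BCL2A1 was then 2.81-fold lower, so that the ratio of BCL2A1 to STK17B changed by 0.41 on the log2 scale in this setting. Both settings pull the arrays of a table in which most probe sets were higher towards each other, and the median log2 fold change over the table was still 0.43 and 0.35 under them. Which scale is right cannot be told from the table. The control intensities of NAIP were 74.4 and 64.3 units, and with 16 units added before the log it was 2.30-fold higher.

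**Figure D4:**
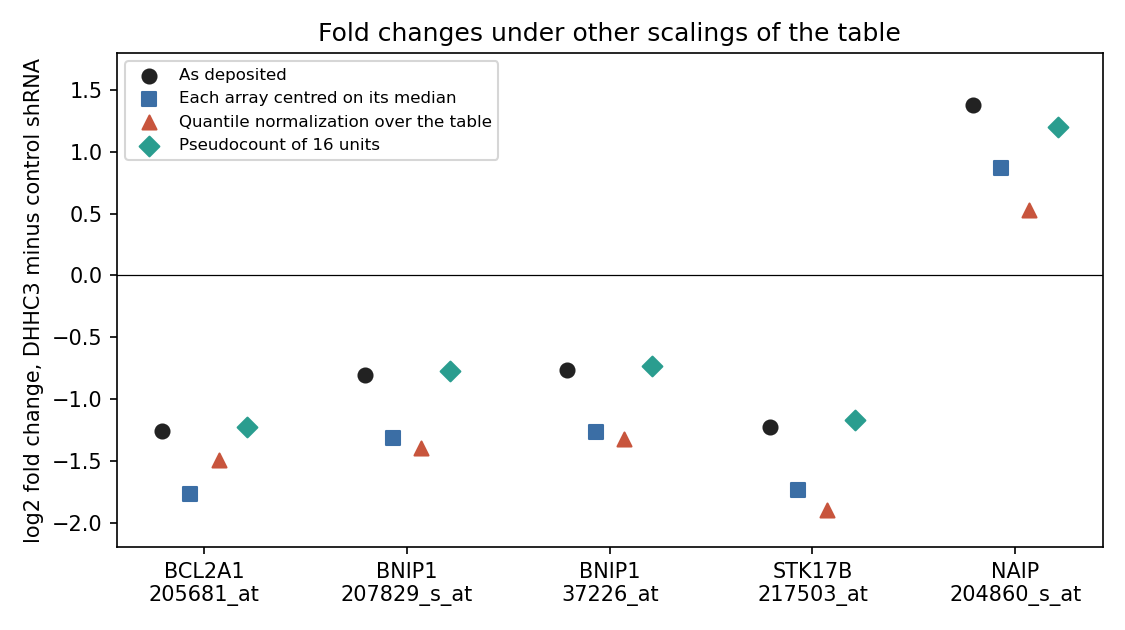
Log2 fold change (DHHC3 minus control shRNA) of the 5 probe sets as deposited, with each array centred on its median, after quantile normalization over the table, and with a pseudocount of 16 units. No point crosses 0: the 4 probe sets of BCL2A1, BNIP1 and STK17B stay below and NAIP stays above, from 1.38 as deposited down to 0.53 after quantile normalization.

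The genes with the most similar course over the 4 arrays were found by the Euclidean distance between log2 intensities after the mean of each probe set was taken off. This distance uses the same contrast and is a description. Among all 136 other probe sets, STK17B was the closest to BCL2A1 and BCL2A1 the closest to STK17B, at a distance of 0.05 log2 units. Their closeness was read on the deposited scale: after quantile normalization the log2 ratio of these 2 changed by 0.41 between the groups. After each other, both had ANAPC15, part of the anaphase-promoting complex, as the closest gene with 1 symbol, at 0.20 from BCL2A1 and 0.16 from STK17B. ANAPC15 read 680 and 687 units in the controls and 308 and 331 in the DHHC3 shRNA tumors. Next for both came S100A4, a calcium-binding protein, at 0.25 and 0.20. The third was PHF14, a PHD finger protein, for BCL2A1 (0.25) and PFDN4, a prefoldin subunit, for STK17B (0.21).

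BNIP1 37226_at ran closest to LIPA, the lysosomal acid lipase, at a distance of 0.05, followed by GEMIN2, a protein of the SMN complex, and AKR1C1, an aldo-keto reductase, both at 0.06. LIPA read 2243 and 2163 units in the controls and 1313 and 1338 in the DHHC3 shRNA tumors. The other BNIP1 probe set, 207829_s_at, ran closest to HCLS1 at 0.11, then to DENND1A and the glutathione transferase GSTZ1, both at 0.13. The 2 BNIP1 probe sets were 0.14 apart, so several probe sets of other genes lay nearer to each than its partner did: 37226_at ranked 8 of 136 in distance from 207829_s_at. Beside NAIP stood GTF2I, a general transcription factor, SMYD2, a lysine methyltransferase, and TXNIP, the thioredoxin-interacting protein, all 3 at 0.13. GTF2I read 31.4 and 29.1 units in the controls and 85.0 and 84.5 in the DHHC3 shRNA tumors, and like NAIP it has close copies in the human genome.

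Other genes of cell death were looked up in the table by list. Of 105 genes on 10 lists, 0 had a probe set with 1 symbol in it. The lists covered the other survival, effector and BH3-only members of the BCL2 family, the other IAP family members, the inflammasome partners of NAIP, the kinases related to STK17B and the SNARE and tether partners of BNIP1. They also covered caspases, death receptors, NF-kB regulators and targets, and p53 targets. The levels of these listed genes were not analysed here. The lists are not complete: CYLD, a deubiquitinase that restrains NF-kB and acts in death receptor signalling, was on none of them and is named after its values were seen. It read 124 and 119 units in the controls and 225 and 210 in the DHHC3 shRNA tumors, 1.79-fold higher as deposited.

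BCL2A1, STK17B and NAIP are also expressed by leukocytes, and the tumors held host cells. Of 58 markers on 10 lists, 4 were in the table: HCLS1, PTPN7 and PDE4B of the 7 leukocyte genes and TRBC1 of the 7 T cell genes. All 4 were lower in the DHHC3 shRNA tumors, beside 36 of 137 probe sets (26.3%) over the table. The lists were chosen with earlier results of these data known, so nothing is read from that direction. The sum of HCLS1, PTPN7 and PDE4B was 898 and 921 units in the controls and 485 and 526 in the DHHC3 shRNA tumors. TRBC1 read 158 and 147 units against 25.4 and 50.4. The defining leukocyte gene PTPRC, the CD3 genes and the macrophage, neutrophil, B cell, NK cell, endothelial, fibroblast, adipocyte and MDA-MB-231 markers had no probe set with 1 symbol in the table, so the labelled cell type could not be checked.

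Measured against the mean of HCLS1, PTPN7 and PDE4B on the same array, BCL2A1 went from log2 ratios of 1.88 and 1.98 to 1.59 and 1.46, a change of -0.41 ± 0.08 (SE). STK17B changed by -0.38 ± 0.06 (SE), and for both the groups did not overlap. The reference genes are themselves lower probe sets of a table selected on this contrast, so these ratios are a description. Among single pairs of lower probe sets in the table, 63.2% did not overlap. BNIP1 207829_s_at changed by 0.04 ± 0.06 (SE) with groups that overlapped, and 37226_at by 0.09 ± 0.05 (SE) with groups that did not. NAIP over the reference genes changed by 2.23 ± 0.13 (SE), upwards, where a higher probe set over lower ones had to separate the groups. The part of these markers in the results was not tested. In a bulk tumor, fewer cells of a type and less RNA per cell cannot be told apart. The arrays carry human probe sets, and the mouse annotation of the host (GRCm38.p6) lists 4 genes named Bcl2a1 with a letter, 4 named Naip with a digit, and 1 each for Stk17b and Bnip1; how much host RNA bound to these probes was not tested.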

How the data were processed

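RNA of 4 xenograft tumors, 2 per group, was labelled as biotinylated cRNA, per the labels' protocols, and hybridised with 1 sample per array. The values the authors deposited are intensities on a linear scale, already summarised per probe set. How they were summarised, corrected for background, scaled and selected is not given in the sources used here. Gene names came from the platform annotation: 101 probe sets had 1 symbol, 7 several and 29 none listed.

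Intensities were turned into log2 values with no pseudocount and no further normalization. Fold changes are ratios of geometric means, and the SE comes from the pooled SD of both groups. limma 3.58.1 in R 4.3.3 (lmFit, eBayes, Benjamini-Hochberg over 137 probe sets, threshold 0.05) gave the background count and was tested on simulated data. Python 3.11.15, pandas 2.3.3 and matplotlib 3.10.9 did the rest. The number of arrays limits the precision, and p-values would measure only the spread between these samples.

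The 4 genes and the lists were chosen with earlier results of these data known. Named were these genes, ZDHHC3, the 3 nearest probe sets with 1 symbol to each, and every list gene in the table. Alternatives were centring, quantile normalization, a pseudocount of 16, arithmetic means, a filter on the dimmest 25%, trended and robust variances, the replicate block, and leaving out each array.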

Additional observations from a re-analysis of the deposited data

How the results depend on the processing

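All 5 probe sets kept their direction with centring, quantile normalization, the pseudocount, arithmetic means, the replicate block and each array left out. Their groups did not overlap, so the pseudocount, arithmetic means, the block and leaving out an array could not turn a direction. The filter on the dimmest 25% removes NAIP and, like the trended variances, changes no fold. Sizes moved by more than the replicate SD under another scaling. With every array centred on its median, the log2 fold changes were -1.77 for BCL2A1, -1.32 for BNIP1 207829_s_at, -1.27 for BNIP1 37226_at, -1.74 for STK17B and 0.87 for NAIP. After quantile normalization over the table they were -1.49, -1.39, -1.33, -1.90 and 0.53 in the same order. A pseudocount of 16 gave -0.73 for BNIP1 37226_at, -1.17 for STK17B and 1.20 for NAIP. Leaving out each array in turn gave ranges of -1.33 to -1.19 for BCL2A1, -0.88 to -0.74 for BNIP1 207829_s_at, -0.76 to -0.76 for 37226_at, -1.27 to -1.19 for STK17B and 1.27 to 1.48 for NAIP. Arithmetic means, and the brighter BNIP1 probe set alone (-0.76 against -0.78 for both), moved nothing by more than that SD. In a setting added after seeing the data, quantile normalization turned the change in the log2 ratio of BCL2A1 to STK17B from -0.03 to 0.41; the cause was not tested. limma called 124 of 137 probe sets after centring and 104 after quantile normalization, 102 of 102 without the dimmest 25%, and 137 in the other settings. With the replicate block it also called 137 (101 higher, 36 lower), and BCL2A1 stayed at -1.26, as a balanced block leaves the fold changes as they are. The labels do not state that the replicate numbers pair tumors, so no pairing was taken from them. Same-numbered arrays deviated together only weakly (r = 0.06 over 137 probe sets). With 2 arrays a group this cannot show whether tumors were paired. The table was selected for separated groups, so these counts, and the directions that could not turn, are no evidence of stability. Without detection calls, signal over background is unknown, which bears most on NAIP at 64.3 to 74.4 units in the controls.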
